A study of Mus musculus with 2 samples.

Results

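Transcripts of 8 lectin-like receptors of the Klr family were followed in vesicle RNA from cultures of murine cytotoxic T lymphocytes (CTL), which kill infected cells and tumour cells. The genes were Klra8, Klrd1, Klrk1, Klrc1, Klrc2, Klrg1, Klrb1c and Klre1, taken by their symbol in the annotation of the array. They had 8 probes, of 20690 probes with a symbol (19316 genes), and another 14 Klr genes had 1 probe each. The cells had been cultured for 7 days, and their medium was concentrated by ultrafiltration with a 750 kDa cutoff and separated on DEAE, a positively charged resin from which more negatively charged particles need more salt to leave. The fraction eluted with 0.3 M NaCl and the fraction eluted with 0.5 M NaCl were each hybridised, with Cy5, to 1 single-colour array. The sources used here name neither the strain nor the stimulus, nor how many preparations were made. With 1 array per fraction there was no replicate check and no test, and precision is limited by the number of arrays.

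Klr genes encode receptors with a C-type lectin-like domain, most of them clustered in the NK gene complex of chromosome 6. They are best known on natural killer (NK) cells, where inhibitory and activating members read MHC class I and stress-induced proteins on other cells, and several are acquired by CD8 T cells after activation. Activating members work through adaptors such as DAP10 (Hcst), DAP12 (Tyrobp) and the Fc receptor gamma chain (Fcer1g), whereas inhibitory members recruit phosphatases such as SHP-1 (Ptpn6).

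The start regions of the genes for which a RefSeq promoter entry was at hand (assembly GRCm38.p6) are shown first, because a short sequence was shared by most of them. Entries were matched for 6 of the 8 genes, not for Klrd1 and Klrg1, and the first listed start of each was used. The letters TGTGGT, or ACCACA on the opposite strand, are the core bound by Runx factors, among them the CD8 T cell factor Runx3. They were present in the 250 bases before the start in 5 of the 6 genes and in 14.2% of 27025 promoters of the same length. They were also present in 3 of the 18 promoters of other Klr genes (Klra1, Klrb1a and Klrc3). Klrc1, Klrc2 and Klrc3 are near-copies in part of their sequence, so their matches need not be independent. The letters AGGTGT (reverse ACACCT), a core of T-box factors, were found in 0 of the 6 and in 12% of all promoters, and GGAAGT (reverse ACTTCC), a form of the ETS core, in Klrb1c alone and in 20.0% of all. The 3 letter strings were chosen after the sequences had been seen, and a match describes the letters only. The T-box and Runx strings can share bases, since AGGTGT ends in the letters with which TGTGGT begins. Capitals mark the Runx letters in the stretches below, which run 5′ to 3′ on the strand of the gene.
Klrb1c, chr6:128788713-128788742, minus strand: aggaaggaaagcTGTGGTcatggtgttttg
Klrc1, chr6:129679043-129679072, minus strand: gttgttgttgttACCACAgcactcgtattc
Klrc2, farther match, chr6:129660615-129660644, minus strand: ttcaatagaatcACCACAgcatagaacaca
Klrc2, nearer match, chr6:129660597-129660617, minus strand: acaagtagaattACCACAgag
Klre1, chr6:129577972-129578001, plus strand: ttgtgtttaagcTGTGGTtccagagagtca
Klrk1, chr6:129623976-129624005, minus strand: tgatagctgtgcTGTGGTtgtgtgggggtt

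The matches began 9 and 36 bases before the start in Klrc2, 87 in Klrc1, 89 in Klrb1c, 129 in Klrk1 and 229 in Klre1. Klra8 had no such letters in the 250 bases before its start, which are shown whole for comparison and hold no capitals. The letters were not compared with the differences between the arrays. Of the 5 genes that hold them, only Klrc2 and Klre1, both dim, had a difference.
Klra8, chr6:130129899-130130148, minus strand: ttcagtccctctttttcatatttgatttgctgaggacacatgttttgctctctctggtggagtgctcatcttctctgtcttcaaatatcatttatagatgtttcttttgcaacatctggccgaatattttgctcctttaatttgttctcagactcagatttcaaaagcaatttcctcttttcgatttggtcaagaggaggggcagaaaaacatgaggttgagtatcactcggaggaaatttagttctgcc

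Intensities are deposited on a linear scale, with some cells of the table left empty by an unstated rule. The median of all probes with a value was 25 on either array, so values near or below it are called dim. Whether intensities of probes of different genes can be compared as transcript amounts was not tested. Each difference is the log2 intensity at 0.5 M less that at 0.3 M, after each array was centred on its median over the probes with a value on both arrays, which took out a shift of -0.30. As deposited, every difference therefore stands lower by that shift, and differences between 0 and its size change sign. The markers of CTL were present in both fractions. Of the 12 listed, 11 had a value on both arrays, among them Cd8a at 3677 and 2463 on 1 probe, with its other probe empty on both arrays, Cd3d at 849 and 990 and Gzmb at 2493 and 2838, whereas Cd3e was dim at 12 and 14.

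Of the 8 receptors, only Klra8 and Klrd1 stood well above the median of the arrays, and both were brighter at 0.5 M. Klra8 read 151 at 0.3 M and 244 at 0.5 M, and Klrd1 read 148 and 186. Klre1 and Klrc2 were dim on both arrays, Klrc1 and Klrg1 had a value at 0.3 M alone, and Klrk1 and Klrb1c had no value on either. Thus 4 of 8 had a value on both arrays, where 68.8% of all probes did, 2 of 8 had one at 0.3 M alone (12% of all probes) and 2 of 8 had none (16.7%). With so few genes these shares are descriptions.

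**Figure D1:**
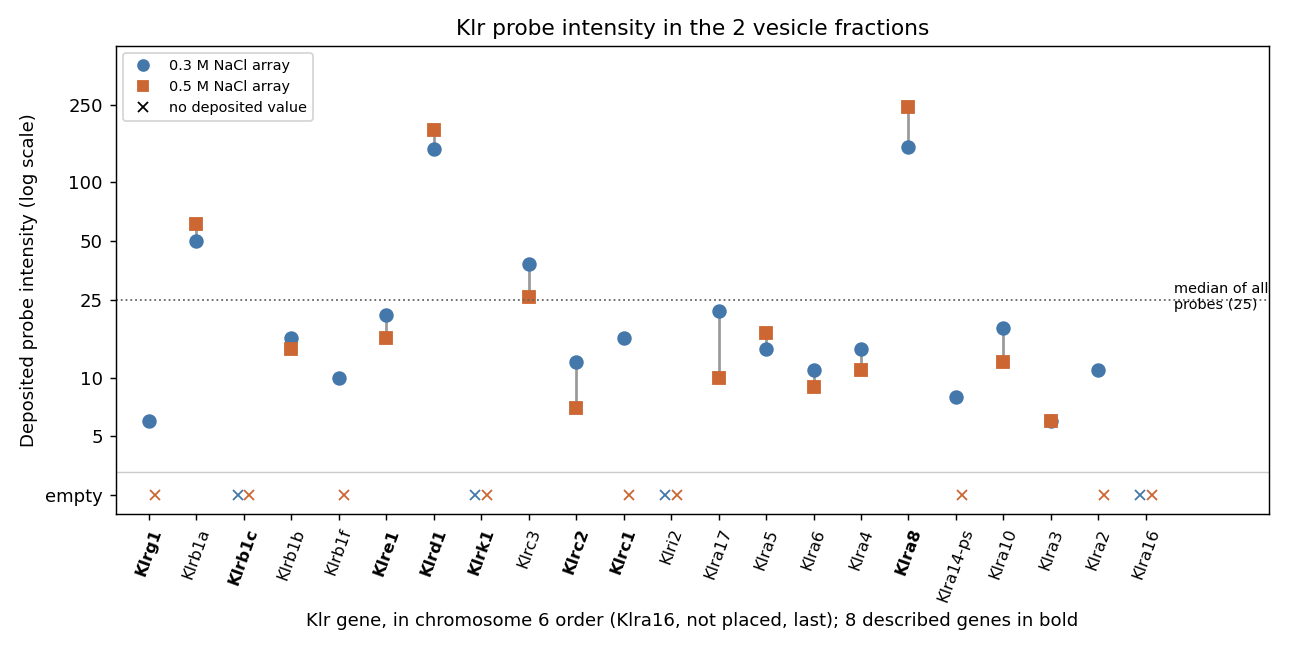
Deposited intensity of the 22 Klr probes (log axis) on the 0.3 M array (circles) and the 0.5 M array (squares), with crosses for cells left empty and the 8 receptors described in bold. Klrd1 and Klra8 lie between 148 and 244 on both arrays, whereas the other 6 bold genes lie at 21 or below or are empty.

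Klra8 encodes Ly49H, an activating receptor that signals through DAP12 and is carried by some mouse strains and not by others. Its probe was brighter than 86.3% of probes with a value at 0.3 M and than 90.3% at 0.5 M. The difference was 0.99 (1.99-fold higher at 0.5 M), just short of the 2-fold used as a size rule, and 0.69 (1.62-fold) with the values as deposited. Among the 500 genes nearest to it in level, 93.2% had a lower difference, and with the outer 2.5% on each side left out their differences ran from -0.87 to 1.29, so Klra8 lay inside the range of genes of like brightness. Klra genes are close relatives, and whether this probe also binds transcripts of others was not tested.

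Klrd1 encodes CD94, the partner chain with which the NKG2 proteins encoded by Klrc genes reach the cell surface. Its probe was brighter than 86.1% of probes at 0.3 M and than 88.1% at 0.5 M. The difference was 0.63 (1.55-fold higher at 0.5 M), and 0.33 (1.26-fold) as deposited. Of the 500 genes nearest in level, 80.8% had a lower difference, and the same range ran from -0.91 to 1.24. Neither gene was thus separable from the spread of single genes on this pair of arrays. The SD of a single probe was 0.55, taken from pairs of probes of the same gene (358 genes with several probes). It is the only error these data allow and leaves out the variation between vesicle preparations. Over all kept genes the SD of the differences was 0.56.

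The NKG2 chains that pair with CD94 gave little signal. Klrc1 encodes NKG2A, the inhibitory chain, and read 16 at 0.3 M with an empty cell at 0.5 M. Of the 375 probes that read 16 at 0.3 M, 23 (6.13%) were empty at 0.5 M. Klrc2 encodes NKG2C, the activating chain, and read 12 and 7, a difference of -0.48 that shrank to -0.09 when 16 was added to each intensity. Klrc3, a related NKG2 gene outside the 8, was brighter at 38 and 26, with a difference of -0.25. Klrc2 and Klrc3 thus lay below 0 where Klrd1 lay above it. However, Klrc2 is too dim for its difference to be read, and that of Klrc3 was smaller than the SD of a single probe (0.55). Klrc3 also reached the filter on dim genes, given below, only at 0.3 M. These genes are near-copies in part of their sequence, and whether their probes keep them apart was not tested.

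The other activating and inhibitory receptors were at the lower end of the array or had no value. Klrk1 encodes NKG2D, the activating receptor for stress-induced ligands that activated mouse CD8 T cells carry, and its cell was empty at both salts. Klrb1c encodes an antigen by which NK cells are recognised in some strains, and its cell was also empty at both. An empty cell was treated as no value, not as a level of 0. Klrg1, an inhibitory receptor for cadherins that marks terminally differentiated effector T cells, read 6 at 0.3 M, where 6.58% of probes were dimmer, and was empty at 0.5 M. Of the 694 probes that read 6 at 0.3 M, 422 (60.8%) were empty at 0.5 M, so this loss was common at that brightness. Klre1, which dimerises with Klri chains, read 21 and 16, with a difference of -0.09.

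Counted together, 2 of the 4 receptors with a value on both arrays lay above 0, as did 53.8% of all genes so measured, and 2 lay below, with a median of 0.27, which turned to -0.03 as deposited. The median of all 13735 genes with a value on both arrays was 0.05. Klra8 and Klrd1 alone passed a filter on dim genes, which asked that a gene reach the median of genes with a value on both arrays (32.0 at 0.3 M, 26.1 at 0.5 M) on at least 1 of them and kept 7446 genes. A receptor without a value on both arrays had no difference to count, and Klrc2 and Klre1 were below 2-fold. Of the 2 receptors kept, 0 were at least 2-fold higher and 0 at least 2-fold lower, too few genes to compare. Among all kept genes, 5.24% were higher (390) and 2.35% lower (175). That split of all genes rests on scaling, being 121 higher and 579 lower as deposited, 250 and 288 after quantile normalization, and 235 and 293 after loess.

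**Figure D2:**
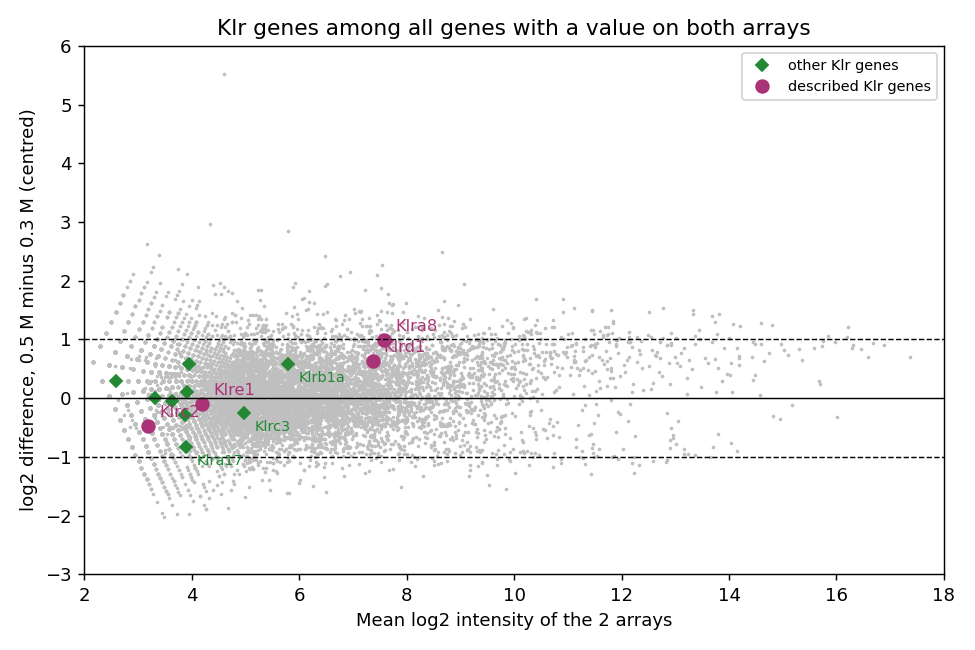
Difference (log2, 0.5 M minus 0.3 M, centred) against mean log2 intensity for the 13735 genes with a value on both arrays (grey), with Klr genes marked and dashed lines at 2-fold. Klra8 (0.99) lies just under the upper line, Klrd1 at 0.63, and the 2 dim receptors Klre1 (-0.09) and Klrc2 (-0.48) lie in the wide cloud at the left.

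The remaining Klr genes were mostly dim, and their differences lay on both sides of 0. Of all 22 Klr probes, 13 had a value on both arrays, 5 at 0.3 M alone, 0 at 0.5 M alone and 4 on neither. Over all probes of the array these shares were 68.8%, 12%, 2.46% and 16.7%. A value at 0.5 M alone was thus rare on the whole array, and 22 probes are too few to compare with it. Klrb1a, of the Nkrp1 receptors, read 50 and 61 (0.59) and was, with Klrc3, the only other Klr gene to pass the filter. Its relative Klrb1b read 16 and 14 (0.11, and -0.19 as deposited), and Klrb1f read 10 at 0.3 M alone. Of the Ly49 genes, Klra17 read 22 and 10 (-0.84) and Klra10 read 18 and 12 (-0.29), whereas Klra5 read 14 and 17 (0.58). Klra4 (14 and 11), Klra6 (11 and 9) and Klra3 (6 and 6) were so dim that steps of a few units set their differences. Klra2, at 11, and the pseudogene Klra14-ps, at 8, had a value at 0.3 M alone, and Klri2 and Klra16 had none. Klra8 was thus the only one of the Ly49 probes above the median of the array on either salt, and the nearest genes with a probe on either side of Klra8 in the cluster, Klra4 and Klra14-ps, were dim or empty.

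Adaptors through which activating receptors signal had values on both arrays. Hcst, which encodes DAP10, the partner of NKG2D, read 385 and 577 (0.88), and Tyrobp, which encodes DAP12, the partner of Ly49H, read 33 and 37 (0.46). Fcer1g, the adaptor of the Klrb1c receptor, read 83 and 105 (0.64). Hcst thus had a value well above the array median on both arrays, and Klrk1 had none. Of 22 adaptor and signalling genes listed, 10 passed the filter, 6 of them above 0 (55.9% of all kept genes were), with a median of 0.38 against 0.08 for all kept genes, and 0 passed 2-fold. The kinase Zap70 read 231 and 300 (0.68), the adaptor Lat 294 and 129 (-0.89) and the SLAM adaptor Sh2d1a 803 and 481 (-0.44), so members lay on both sides of 0. Vav1 (8 and 18) and Pik3r1 (6 and 12), signalling proteins downstream of DAP10, had differences of 1.47 and 1.30 but were too dim for the filter. The phosphatase Ptpn6 was near the median, at 27 and 25.

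Among ligands, class I genes were the brightest. H2-T23 encodes the heavy chain of Qa-1, the ligand of the CD94 and NKG2 pair, and read 161 on both arrays, a difference of 0.30 after centring and 0 as deposited. H2-K1, a classical class I gene, read 187 and 266 (0.81), and H2-D1, whose product is read by Ly49 receptors, was dim at 21 and 8 (-1.09). Of the cadherins listed as ligands of Klrg1, Cdh1 was dim at 10 and 12, and Cdh2 read 31 and 17 (-0.57). Cdh4 read 46 and 41 (0.13, and -0.17 as deposited) and passed the filter. Raet1e, of the NKG2D ligand family, had no value on either array. Of the 20 ligand genes listed, 10 had an annotated probe and 5 passed the filter, with a median of 0.13 (-0.17 as deposited) and 0 genes past 2-fold.

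Other receptors and markers of NK cells lay on both sides of 0. Of 18 receptor genes listed, 5 passed the filter and 1 of these lay above 0 (55.9% of all kept genes did), with a median of -0.34. Over the 12 genes measured, dim ones included, 7 lay above 0 (53.8% of all genes so measured did) and the median was 0.27. Such small counts are descriptions. Cd244a, the SLAM receptor known as 2B4, read 63 and 16 (-1.68) and passed the filter only through its value at 0.3 M. Cd96 read 291 and 179 (-0.40) and Cd226 read 59 and 38 (-0.34). Ncr1, which encodes NKp46, the receptor that defines NK cells, was near the floor of the arrays, at 5 and 9. Of the 11 NK cell markers listed, 9 had a value, with sums of 883 at 0.3 M and 984 at 0.5 M, and Klrb1c and Styk1 had none on either array. Most of each sum came from Nkg7 (405 and 548) and Gzma (200 and 224), which CTL also express. After centring, 7 of the 9 lay above 0, whereas Ncam1 (97 and 61, -0.37) and Cd244a lay below. Markers of other cells also differed between the arrays. Of 6 B cell markers listed, 4 had a value, with sums of 355 and 486, in which Cd79b went from 94 to 328 (2.10) and Cd22 from 225 to 126 (-0.54), and Pax5 was empty on both arrays. Of 7 macrophage and dendritic cell markers, 6 had a value, with sums of 394 and 230, and Adgre1 was empty on both. The fall of the sum came from Mrc1, which went from 259 to 87 (-1.27), and 5 of the 6 lay above 0 after centring. These did not fall in intensity, among them Cd68 (50 and 53) and Csf1r (49 and 50). Of the 3 helper T cell markers, Cd4 read 40 and 25 (-0.38), and Foxp3 was dim on both of its probes. Cd40lg read 36 at 0.5 M and was empty at 0.3 M. The sums of 65 and 85 therefore do not cover the same genes on both arrays. The part of RNA from other cells in the Klra8 and Klrd1 values was not tested. Fewer vesicles that carry a transcript and less of it per vesicle cannot be told apart in these data.

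Factors known to act on Klr genes had probes of different intensities, which do not rank their transcripts by amount. Tbx21, the T-bet factor of effector cells, read 39433 and 25174, with a difference of -0.35 that grew to -0.91 after quantile normalization and to -1.15 after loess, and its relative Eomes read 54 and 60 (0.45). Runx3 was dim at 29 and 19 (-0.31). Id2, a factor of NK and effector T cells, read 667 and 629, with a difference of 0.21 that turned negative as deposited (-0.08), with quantile normalization (-0.02) and with loess (-0.10). Nfil3, needed for NK cell development, read 597 and 437 (-0.15). Genes lying beside Klr genes in the NK complex lay on both sides of 0 after centring, with a median of 0.02 over 6 kept genes, but all 6 lay below 0 as deposited, with a median of -0.28. Among them were Gabarapl1 (112 and 108) and the lectins Clec2h (68 and 55) and Clec2i (55 and 42).

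**Figure D3:**
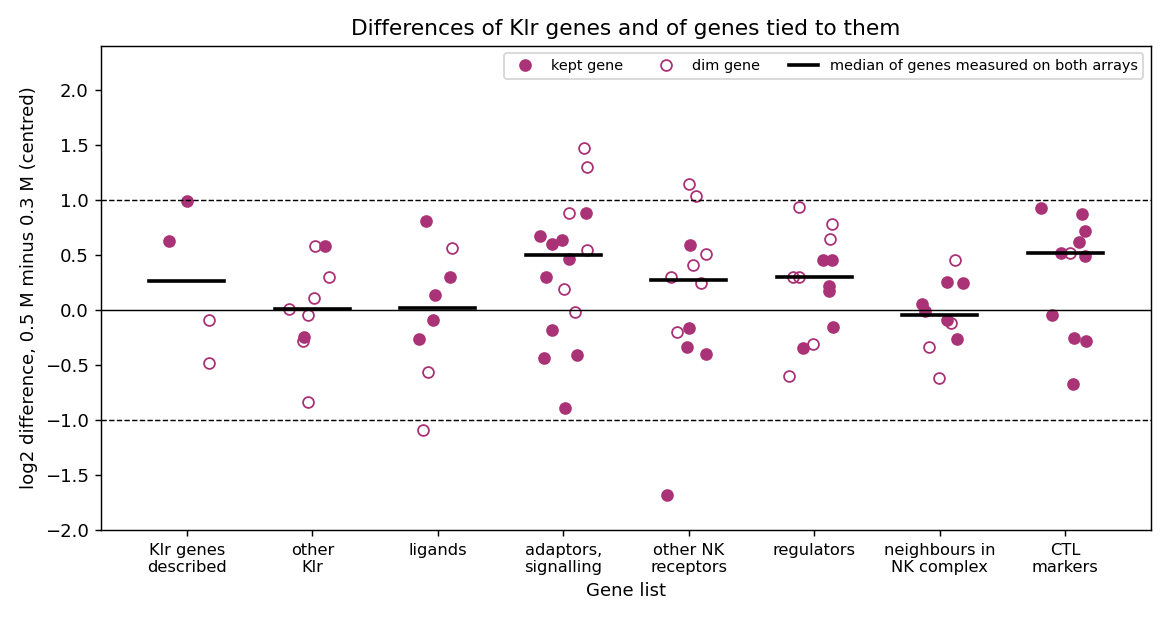
Difference (log2, 0.5 M minus 0.3 M, centred) of every gene with a value on both arrays in 8 lists, filled for kept genes and open for dim genes, with a bar at the median of each list. The 2 filled Klr points (0.99 and 0.63) are above 0 and the 2 open ones (-0.09 and -0.48) below, and the other lists hold genes on both sides of 0.

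Of the kept genes in all these lists, those whose difference was nearest to that of Klra8 were Cd3g (0.93) and Hcst (0.88), and nearest to that of Klrd1 were Thy1 (0.62) and Fcer1g (0.64). Thy1 and Klrd1 were less alike with quantile normalization (0.26 and 0.51) and with loess (0.13 and 0.51). Nearest to Klrc2 were Sh2d1a (-0.44) and Cd22 (-0.54), and nearest to Klre1 were Clec2i (-0.09) and Prf1 (-0.04). With 2 arrays this likeness rests on 1 difference per gene.

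The differences of the brighter Klr genes kept their sign under every scaling tried. Klra8 ran from 0.69 as deposited to 0.99 with centring, Klrd1 from 0.33 to 0.63 and Klrb1a from 0.29 to 0.59. The sign of Klrc3 was negative throughout, from -0.55 to -0.17.

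**Figure D4:**
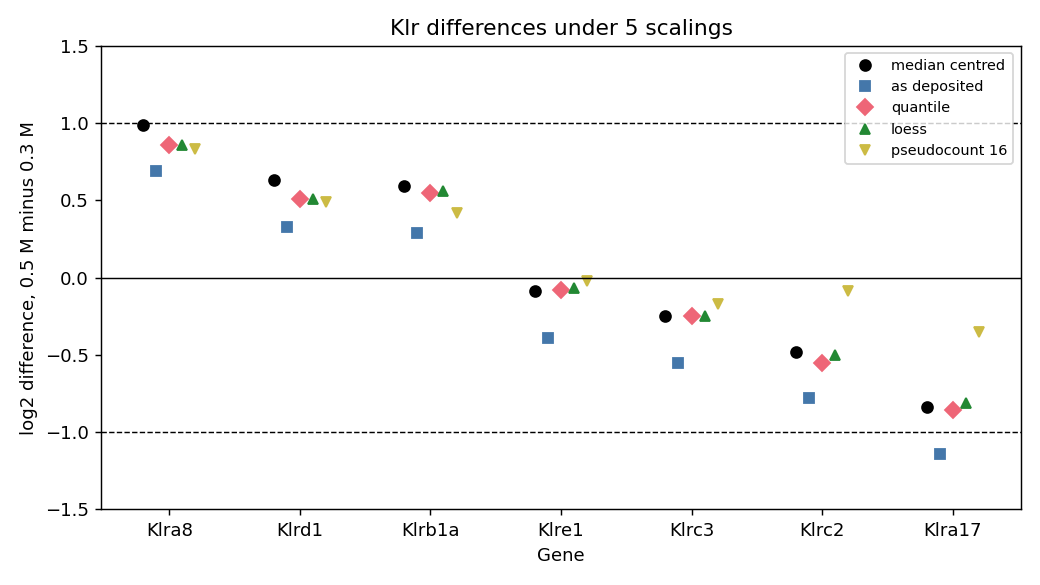
Difference (log2, 0.5 M minus 0.3 M) of 7 Klr genes under 5 scalings, with dashed lines at 2-fold. Klra8, Klrd1 and Klrb1a stay above 0 and the other 4 below, and Klra17, which was too dim for the filter, passes the lower line only as deposited (-1.14).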

How the data were processed

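RNA of 2 vesicle fractions was measured on 1 single-colour array each. Per the labels' protocols, the RNA was amplified (Amino Allyl aRNA) and coupled to Cy5. The authors deposited intensities as whole numbers on a linear scale; their scanner, background correction, normalization and rule for empty cells were not given in the sources used here. Of 23473 probes, 16154 had a value on both arrays. Symbols came from a RefSeq gene table (GRCm38.p6), through Entrez identifiers (20556 probes) or accessions (9 probes), and 125 kept the array's symbol. Coordinates are those of the RefSeq promoter entries, since the array names no build.

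Intensities were log2-transformed and centred, and probes of a gene were averaged (numpy 2.4.6, pandas 2.3.3). Each Klr gene had 1 probe. Computations were tested on simulated data. Alternatives tried were deposited values without centring, quantile normalization, loess (span 0.3, statsmodels 0.14.6), a pseudocount of 16, no filter or a stricter filter (75th percentile) on dim genes, and the brightest probe. All 8 genes and every other Klr gene with a value are named, and of each related list the 3 largest differences and the 3 highest levels were eligible, with Hcst, Tyrobp, H2-T23, Ncr1, Eomes and Tbx21 in any case. Adgre1, Cd3d, Cd3e, Cd40lg, Cdh1, Cdh4, Pax5, Ptpn6, Raet1e, Runx3 and Styk1 were added after their values were seen. The genes and lists were chosen with earlier results of these data known.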

Additional observations from a re-analysis of the deposited data

How the results depend on the processing

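The differences of the receptors Klra8, Klrd1, Klrc2 and Klre1 kept their sign as deposited, with quantile normalization, with loess and with the pseudocount. Changing the filter or taking the brightest probe could not move them, because each Klr gene had 1 probe. The count of kept receptors past 2-fold stayed at 0 in every setting. Klrc2 and Klre1 gave no value under the stricter filter. Klra17, outside the 8 and too dim for the filter, was past 2-fold only as deposited (-1.14). A change smaller than the SD of a single probe (0.55) was taken as no change. The median of the 4 measured receptors ran from -0.03 as deposited to 0.27 with centring. Over Klra8 and Klrd1, the 2 that passed the main filter, the median was 0.81. The stricter filter left the same 2 and the same median. Counts of all kept genes past 2-fold did depend on processing. They were 390 higher and 175 lower with centring, 121 and 579 as deposited, 250 and 288 with quantile normalization, 235 and 293 with loess, 157 and 98 with the pseudocount and 701 and 380 with no filter, and 285 and 83 under the stricter filter, where fewer genes were counted. No paired analysis was possible because each fraction has 1 array. With 1 array per fraction, leaving out a replicate was also not possible, and dim probes limit every comparison of the other 6 receptors.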
